A study of Arabidopsis thaliana with 24 samples.

Results

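The comparison set 3 libraries of hormone-treated Arabidopsis thaliana leaves against 3 mock libraries, all frozen after 60 min of blocked transcription, and asked which differences were present at that time. They are 6 of the 24 libraries of the series, chosen by their labels alone, and all 37898 nuclear genes of the table entered, of which 20278 passed a filter on low counts and were tested. Stimulus leaves had spent 8 h in a buffer with 20 µM bikinin, 0.5 µg/mL of the cytokinin kinetin and 2.5 µg/mL of the synthetic auxin 2,4-dichlorophenoxyacetic acid. Mock leaves had spent the same time in that buffer without the 3 additions. Both groups were the detached first leaf pair of plants of the Columbia-0 ecotype, grown for 10 d in continuous light. Both then received 1 mM cordycepin, a chain terminator that stops RNA synthesis, so mock leaves are no untreated control for it. The buffer of both groups held glucose and dimethyl sulfoxide, and both groups had been surface-sterilised with bleach. Each library was made from a pool of whole leaves, and nothing in the labels ties a library to a separate plant batch. The p-values therefore measure the spread between these libraries, which may be technical in part. The libraries of each group carry the numbers 2, 3 and 4. The 6 libraries of 0 min, treated alike but frozen as cordycepin was added, served for comparison.

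Auxin acts by destroying Aux/IAA repressors, which frees transcription factors that switch on early genes, among them the Aux/IAA and GH3 genes themselves. Cytokinin switches on the type-A response regulators through a phosphorelay. Bikinin inhibits the kinases that restrain brassinosteroid signalling, and active brassinosteroid signalling represses the genes that make the hormone. Under a full block of transcription, the amount of a transcript reflects what was present at the start and how fast it has decayed since. Sequencing counts are relative to the rest of the library, so a level can also rise when other transcripts fall. How complete the block was here was not tested.

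The 6 libraries held 24021278 to 31490636 counts, of which organelle transcripts took 33.7 to 46.1%. Replicates of a group differed by far more than counting noise, with chi-square per degree of freedom of 35.9 to 95.7 between pairs. The treatment labels were checked on GH3.3 (AT2G23170), an enzyme gene induced by auxin. In CPM, counts scaled to library size, GH3.3 had 388, 417 and 166 CPM in stimulus replicates 2, 3 and 4, against 4.02, 1.08 and 7.01 CPM in mock replicates 2, 3 and 4, so the treatment labels and this gene did not conflict. The extent of RNA decline differed within the groups. Over 500 transcripts that fell most between the 0 and 240 min libraries of stimulus replicate 2, the median log2 change from the 0 min libraries was -0.996, -0.25 and -1.72 in stimulus replicates 2, 3 and 4 and 0.01, -0.99 and -1.52 in mock. Since they were chosen on stimulus replicate 2, its own 0 min library is part of the baseline. Stimulus replicate 3 and mock replicate 2 showed little of the decline seen in the other 4 libraries. The 0 min libraries had an index of -0.15 to 0.09. Mock replicate 2 lay within that range and stimulus replicate 3 just below it. At 0 min GH3.3 had 615 to 811 CPM in stimulus and 0.844 to 1.51 CPM in mock. Both libraries lay outside these ranges of GH3.3 at 60 min. The index leaves the 60 min label of these 2 libraries in doubt, and the label was not tested. The index does not describe every short-lived transcript. Over the list of 19 short-lived factors, the mean log2(CPM + 1) minus that of the same treatment's 0 min libraries was -0.01, 0.68 and 1.47 in stimulus and 0.36, 1.13 and 1.99 in mock replicates 2, 3 and 4. The clock gene LHY also separated the numbers, with 44.6, 5.65 and 52.2 CPM in stimulus and 37.9, 19.2 and 54.1 CPM in mock. Replicate 3 was the lowest in both groups. What these differences did to each result was not tested beyond leaving the libraries out. Results are therefore given with and without mock replicate 2 and stimulus replicate 3, called the reduced set of 4 libraries below.

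**Figure D1:**
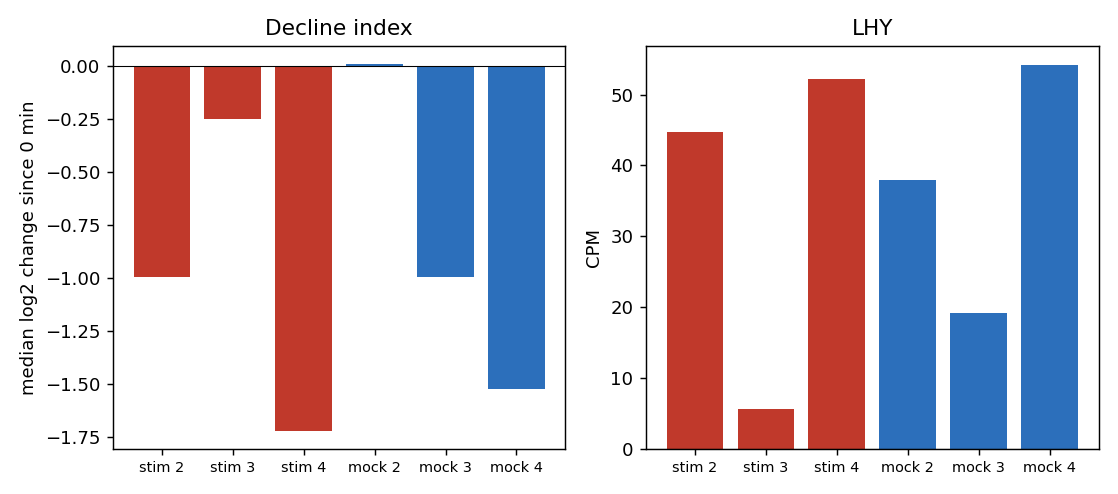
The left panel plots the median log2 change since 0 min over 500 declining transcripts in each library at 60 min (stim 2 to stim 4 for stimulus replicates 2 to 4, mock 2 to mock 4 for mock replicates), and the right panel plots LHY in CPM. Stimulus replicate 3 at -0.25 and mock replicate 2 at 0.01 stand near 0, and LHY is lowest in replicate 3 of both groups.

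At 60 min 1584 of the 20278 nuclear genes that passed the filter were called, by the quasi-likelihood test of edgeR at a Benjamini-Hochberg adjusted p under 0.05, which is 7.81% of them. Of these, 541 (2.67%) were higher in stimulus than in mock and 1043 (5.14%) were lower. At least 2-fold differences made up 482 of the higher and 965 of the lower calls, and at least 8-fold differences 125 and 107. In every called gene the 3 stimulus values lay entirely on one side of the 3 mock values. A lack of overlap in a called gene below is therefore no separate evidence. Groups that did not overlap were more common than calls, at 12.9% of genes with stimulus above mock and 14.3% below. The median change over all genes tested was 0.03 (log2). With library sizes set by total counts that median moved to 0.43 and the split became 1503 higher and 593 lower calls, so the excess of lower calls depends on the scaling. The count fell to 811 in the reduced set, 241 higher and 570 lower. It was 172 without stimulus replicate 2, 624 without stimulus replicate 3, 825 without stimulus replicate 4 and 352 without mock replicate 3. Leaving out both libraries of number 3 left 0 calls, with 3030 genes at an unadjusted p under 0.05. DESeq2 on all 6 libraries called 2864, 1047 higher and 1817 lower. List counts given below for these other settings stand beside the totals of the same setting, and not beside 2.67% and 5.14%.

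Auxin early genes were among the genes with the largest fold differences. GH3 enzymes join amino acids to auxin and so take it out of action. BRU6 (AT4G37390, also GH3.2) had 85.6, 284 and 76.9 CPM in stimulus against 0.919, 0.754 and 2.49 CPM in mock, with no overlap between the groups. Its log2 change was 6.75 ± 0.79 (SE), with an adjusted p of 0.00529 from edgeR's quasi-likelihood test. GH3.3, whose values stand above, changed by 6.32 ± 0.76 (adjusted p 0.00596, same edgeR test). GH3.1 (AT2G14960) had 3.72, 3.36 and 13.7 CPM in stimulus and 0.0681, 0.0943 and 0.415 CPM in mock, a log2 change of 5.17 ± 0.92. GH3.1 was not called in the reduced set, nor without stimulus replicate 2 or mock replicate 3. GH3.4 was called with 16, 57 and 11 counts in stimulus and 0, 0 and 1 count in mock, a ratio of 66.2 (95% interval 11.6 to 2644, counting error only), and 20.9 (3.44 to 855) in the reduced set. Of the list of 13 GH3 and LBD genes, 7 passed the filter on low counts, of which 4 were higher, none was lower and the median was 5.17 (log2) beside 0.03 over all genes. Over all genes 2.67% were higher and 5.14% lower. WES1 (also GH3.5) and GH3.17 went the other way without a call, with log2 changes of -1.23 ± 0.47 and -1.28 ± 0.96. DFL1 (also GH3.6) was not called either, at 1.25 ± 0.57. The 6 LBD genes, which encode transcription factors, were too low to test. 2 of the 7 were higher in the reduced set, where the median was 4.08.

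Aux/IAA proteins are the repressors that auxin removes. Of 28 genes 25 were tested, and 8 were higher (IAA1, IAA5, IAA13, IAA14, IAA19, IAA20, IAA30 and IAA32) while 1, IAA8, was lower. The median was 0.60 (log2), and over all genes 2.67% were higher and 5.14% lower. IAA19 (AT3G15540) had 20.5, 28.2 and 25.1 CPM in stimulus against 2.04, 2.12 and 2.91 CPM in mock. IAA30 (AT3G62100) had 11.1, 17.5 and 17.5 CPM in stimulus against 0.340, 0.377 and 0.369 CPM in mock. The groups were well apart in both, with log2 changes of 3.38 ± 0.26 (adjusted p 0.00252, edgeR) and 5.39 ± 0.35 (adjusted p 0.00171, edgeR). IAA5 (AT1G15580) varied more within stimulus, with 35.0, 78.6 and 10.4 CPM, against 2.04, 1.46 and 0.184 CPM in mock. IAA5 was not called in the reduced set, nor without stimulus replicate 2, stimulus replicate 3 or mock replicate 3. IAA1 (AT4G14560) had 21.7, 40.0 and 23.7 CPM in stimulus and 6.57, 4.24 and 3.09 CPM in mock (log2 change 2.61 ± 0.37), and was not called without mock replicate 3. IAA8 (AT2G22670) ran the other way, with 47.0, 38.8 and 66.9 CPM in stimulus and 90.9, 133 and 165 CPM in mock. Its log2 change of -1.35 ± 0.31 had an adjusted p of 0.0420 by edgeR and was not called without stimulus replicate 2, stimulus replicate 3, mock replicate 3 or mock replicate 4. PAP1 (AT3G16500, also IAA26) and AXR3 (AT1G04250, also IAA17) were lower without a call, with log2 changes of -2.41 ± 0.72 and -1.19 ± 0.36. Groups did not overlap in 10 of the 25 with stimulus higher and 3 with stimulus lower, beside 12.9% and 14.3% of all genes. DESeq2 called 10 of the 25 higher and 3 lower, beside 1047 and 1817 of all genes. In the reduced set 4 of the 25 were higher and none lower.

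The upstream 250 bases of GH3.3, IAA19 and CPD, a brassinosteroid gene described below, are shown because GH3.3 and IAA19 were higher and CPD lower. They come from RefSeq on assembly TAIR10.1 and are written 5' to 3' on the strand of the gene, ending just before its annotated start, with capitals marking motif matches on either strand. These upstream bases lie at chr2:9866563-9866812 for GH3.3 (minus strand), chr3:5263751-5264000 for IAA19 (plus strand) and chr5:1706949-1707198 for CPD (minus strand).
GH3.3: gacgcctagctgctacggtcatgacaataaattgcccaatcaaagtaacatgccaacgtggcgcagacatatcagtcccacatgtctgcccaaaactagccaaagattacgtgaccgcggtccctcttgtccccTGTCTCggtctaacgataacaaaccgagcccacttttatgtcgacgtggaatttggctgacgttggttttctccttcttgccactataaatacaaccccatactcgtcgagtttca
IAA19: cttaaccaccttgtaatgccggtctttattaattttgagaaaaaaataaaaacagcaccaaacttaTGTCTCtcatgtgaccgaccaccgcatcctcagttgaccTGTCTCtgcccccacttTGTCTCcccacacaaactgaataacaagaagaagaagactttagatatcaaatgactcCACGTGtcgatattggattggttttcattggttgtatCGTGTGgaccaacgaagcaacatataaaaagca
CPD: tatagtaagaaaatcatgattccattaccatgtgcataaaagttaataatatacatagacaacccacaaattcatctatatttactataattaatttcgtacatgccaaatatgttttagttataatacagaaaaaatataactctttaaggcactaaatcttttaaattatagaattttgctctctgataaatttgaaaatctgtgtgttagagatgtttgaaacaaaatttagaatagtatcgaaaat
The motifs searched were TGTCTC, the classical core of auxin response elements, and TGTCGG, a related form of it. The brassinosteroid response element was searched as CGTGTG and also as CGTGCG, and the G-box as CACGTG, which CGTGTG can overlap. GH3.3 held 1 match, IAA19 held 5 and CPD held none. TGTCTC was found in the 250 upstream bases of 11.2% of higher genes and 9.97% of lower genes, beside 10.7% of the 18914 protein-coding genes tested. TGTCGG was found in 6.72% of higher and 4.16% of lower genes, beside 4.69%. CACGTG was found in 6.90% of higher and 10.9% of lower genes, beside 7.41%. CGTGTG was found in 5.60% and 7.36% of those sets, beside 5.40%, and CGTGCG in 0.933% and 2.32%, beside 1.62%. The motifs were chosen after other results had been seen, and no test was made of these shares.

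Auxin carriers moved in both directions. Of 12 genes 10 were tested, of which 2 were higher, LAX2 among them, and LAX3 was lower, with a median of 0.37 (log2). These counts stand beside 2.67% higher and 5.14% lower over all genes. The importer gene LAX2 (AT2G21050) had 105, 76.5 and 130 CPM in stimulus against 9.67, 8.72 and 9.69 CPM in mock. Its groups did not overlap, with a log2 change of 3.47 ± 0.26 and an adjusted p of 0.00252 by edgeR's quasi-likelihood test, and it was called whichever single library was left out and in the reduced set. LAX3 (AT1G77690), another importer, was at 0.0329, 0.275 and 0.199 CPM in stimulus and 1.36, 1.46 and 1.43 CPM in mock. Its log2 change of -3.02 ± 0.72 (adjusted p 0.0469, edgeR) was not called once any of the 6 libraries was left out.

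Cytokinin genes were higher where edgeR called them. Type-A response regulators damp cytokinin signalling, and 5 of the 8 tested of 10 were higher (ARR4, RR5, ARR6, ARR9 and ARR15), with none lower and a median of 2.46 (log2). Over all genes 2.67% were higher and 5.14% lower. RR5 (AT3G48100, also ARR5) had 7.14, 13.5 and 17.0 CPM in stimulus against 0.340, 0.189 and 0.692 CPM in mock. Its groups lay far apart, with a log2 change of 4.94 ± 0.58 (adjusted p 0.00533, edgeR). ARR9 (AT3G57040) changed by 2.50 ± 0.41 and ARR15 (AT1G74890) by 3.85 ± 0.66. Without stimulus replicate 2 or mock replicate 3 neither ARR9 nor ARR15 was called, nor was ARR15 without stimulus replicate 3. 6 of the 8 were higher in the reduced set. RR3 (AT2G41310, also ARR8) stood at 3282, 3171 and 6266 CPM in stimulus and 3325, 5706 and 8212 CPM in mock, far above the rest of the list, and its counts are uncertain because other features of the table carry nearly the same ones. Enzymes that break down cytokinin were also higher in part: CKX3 and CKX6 of the 5 tested of 9 breakdown and hydroxylation genes. CKX7 (AT5G21482) went the other way and was not called, with a log2 change of -1.24 ± 0.39 (adjusted p 0.112, edgeR). The stimulus values of CKX7 all lay below its mock values. DESeq2 called 3 genes of this list higher and 1 lower. CKX6 (AT3G63440) had 19.5, 33.2 and 30.6 CPM in stimulus against 1.97, 1.70 and 2.40 CPM in mock, a log2 change of 3.78 ± 0.30 (adjusted p 0.00271, edgeR). CKX3 (AT5G56970) had 1.15, 1.90 and 4.23 CPM in stimulus against 0.0681, 0.0943 and 0.0461 CPM in mock, and was not called without mock replicate 3. LOG3 (AT2G37210), which encodes an enzyme that releases active cytokinin, had 48.0, 97.4 and 36.7 CPM in stimulus against 0.919, 0.613 and 0.184 CPM in mock. Its log2 change was 6.68 ± 0.64 (adjusted p 0.00395, edgeR), next to that of BRU6.

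**Figure D2:**
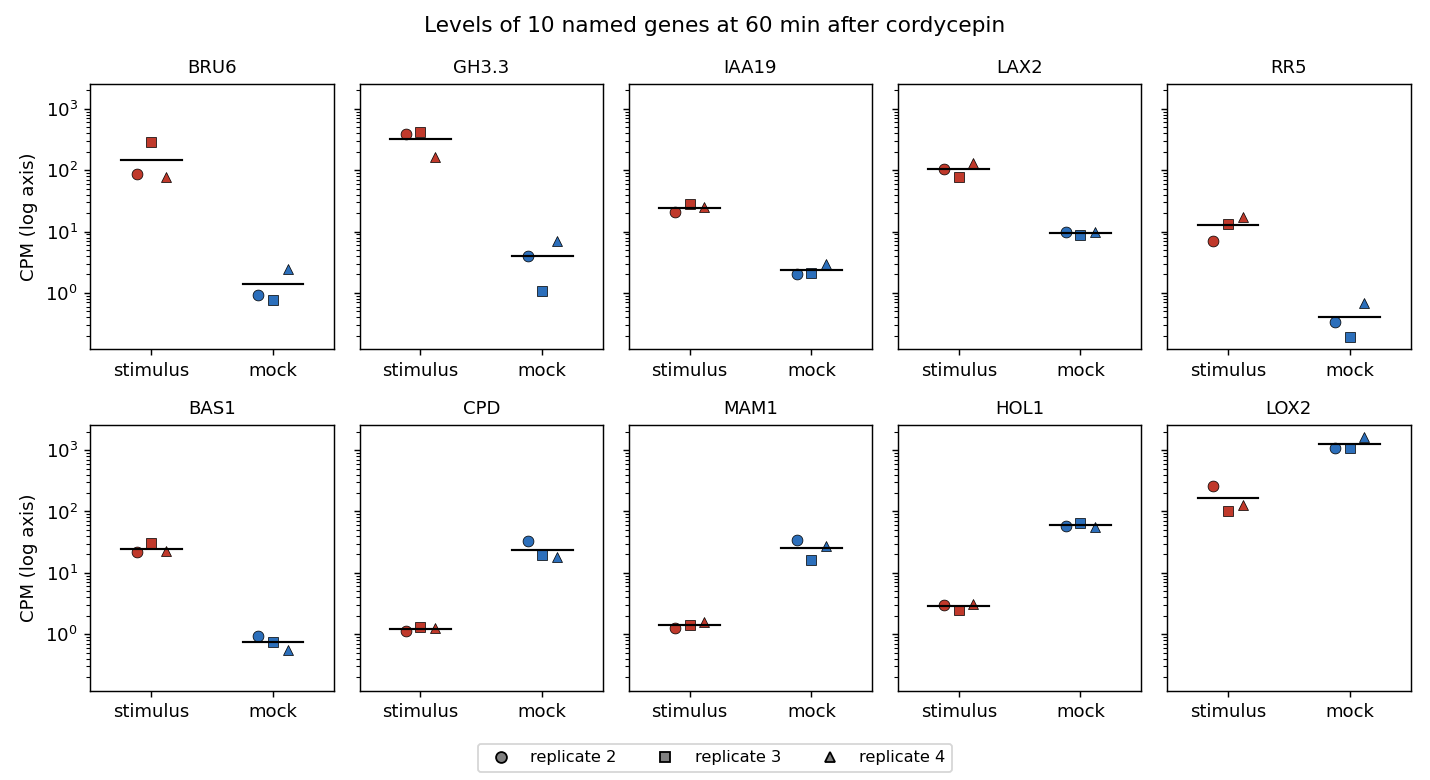
Each panel plots 1 gene in CPM on a log axis, with stimulus libraries on the left and mock libraries on the right, symbols for replicates 2, 3 and 4, and a line at the group mean. In all 10 genes the stimulus and mock values do not overlap, with BRU6, GH3.3, IAA19, LAX2, RR5 and BAS1 higher in stimulus and CPD, MAM1, HOL1 and LOX2 lower. All 10 were called, and no called gene had overlapping groups.

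Genes that make brassinosteroids were lower in stimulus. Of 10 genes 9 were tested, of which 7 were lower, none was higher and the median was -4.12 (log2). Over all genes 5.14% were lower. CPD (AT5G05690), a cytochrome P450 of the pathway, had 1.12, 1.32 and 1.24 CPM in stimulus against 32.6, 19.6 and 18.4 CPM in mock. DWF4 (AT3G50660), which catalyses a rate-limiting step, had 0.461, 0.909 and 0.917 CPM in stimulus against 25.5, 7.73 and 6.55 CPM in mock. The groups did not overlap in either, with log2 changes of -4.26 ± 0.32 (adjusted p 0.00252, edgeR) and -4.12 ± 0.65 (adjusted p 0.0127, edgeR). DWF4 was not called without stimulus replicate 2 or stimulus replicate 3. BR6OX2 (AT3G30180), which completes the last steps, held 0, 1 and 1 count in stimulus and 1167, 75 and 48 counts in mock. Mock was 819-fold higher than stimulus by those counts (95% interval 226 to 6770, counting error only), with mock replicate 2 far above the other 2. Without mock replicate 2 the ratio was 132 (interval 35.7 to 1099). CYP90D1 (AT3G13730) held 1 count in each stimulus library and 54, 34 and 26 counts in mock, a mock level 48.2-fold higher (interval 16.1 to 237), and was not called without stimulus replicate 2. ROT3, DWF1 and STE1 (also DWF7) were lower as well. DWF1 had 130, 112 and 164 CPM in stimulus against 241, 292 and 282 CPM in mock, a smaller log2 change of -1.01 ± 0.24. DET2 and DWF5 did not pass the test. The reduced set had 4 of the 9 lower and a median of -3.33, and total counts also had 4 lower.

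The gene for BAS1 (AT2G26710), an enzyme that inactivates brassinosteroids, moved the opposite way to the synthesis genes. BAS1 had 21.7, 30.2 and 22.5 CPM in stimulus against 0.919, 0.754 and 0.553 CPM in mock, with no overlap. Its log2 change was 5.04 ± 0.31 (adjusted p 0.00147, edgeR), and it was called whichever single library was left out and in the reduced set. It was the only one of the 10 tested of 11 signalling and inactivation genes to pass, and the list median was 0.19 (log2). Over all genes 2.67% were higher. CYP72C1 (AT1G17060, also SOB7), of the same list, was not called, with a log2 change of -0.22 ± 0.47. At 0 min CYP72C1 was called lower, with a log2 change of -0.97. With total counts 2 of the 10 were called higher.

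Wall-loosening genes respond to auxin and brassinosteroid in growing organs. Among alpha-expansins EXP3 (also EXPA3) and EXPA4 were higher of 10 tested of 13, beside 2.67% of all genes higher, and the median was 0.99 (log2). EXPA4 (AT2G39700) had 192, 211 and 218 CPM in stimulus against 70.7, 63.2 and 39.5 CPM in mock (log2 change 1.84 ± 0.27, adjusted p 0.0103, edgeR). EXPA4 was not called without stimulus replicate 2 or mock replicate 3. EXP3 (AT2G37640) had 65.9, 77.3 and 57.0 CPM in stimulus against 27.7, 32.5 and 20.8 CPM in mock, and was not called in the reduced set, nor without stimulus replicate 2, stimulus replicate 3 or mock replicate 3. Xyloglucan endotransglucosylases cut and rejoin wall polymers. Of 13 tested of 15, XTH4 and XTH19 were higher and XTH6 was lower, beside 2.67% higher and 5.14% lower over all genes. XTH19 (AT4G30290) had 80.8, 212 and 88.5 CPM in stimulus against 21.3, 12.4 and 14.9 CPM in mock (log2 change 2.97 ± 0.45), and was not called without mock replicate 3. XTH6 (AT5G65730) had at most 3.15 CPM in stimulus against 22.1, 14.9 and 6.60 CPM in mock (log2 change -2.76 ± 0.57), and was called without mock replicate 4 but not without any of the other 5 libraries. XTH4 (AT2G06850) changed by 1.16 ± 0.20 and was called without mock replicate 2 but not without any of the other 5. The list median of -0.34 turned to 0.04 with total counts. The reduced set called only EXPA4 of the expansins list and 1 of the XTH list.

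Vein genes were higher where they were called. Of 15 genes of the procambium, cambium and HD-ZIP III list 14 were tested, with TMO6, MP and HB-8 higher, none lower and a median of 0.88 (log2). Over all genes 2.67% were higher and 5.14% lower, which also stand beside the phloem and xylem counts below. HB-8 (AT4G32880, also ATHB8), a class III HD-ZIP factor of early vein cells, had 92.3, 110 and 66.0 CPM in stimulus against 23.6, 13.8 and 12.2 CPM in mock. MP (AT1G19850), an auxin response factor that acts on it, had 109, 72.6 and 125 CPM in stimulus against 26.5, 29.5 and 40.2 CPM in mock. Both had separate groups, with log2 changes of 2.43 ± 0.33 (adjusted p 0.00822, edgeR) and 1.67 ± 0.28 (adjusted p 0.0156, edgeR), and neither was called without stimulus replicate 2 or mock replicate 3. TMO6 (AT5G60200), a DOF factor, had 28.3, 108 and 31.9 CPM in stimulus against 10.8, 2.69 and 3.78 CPM in mock, and was called without mock replicate 2 but not without any of the other 5 libraries. 5 of the 14 were higher in the reduced set. Among 8 phloem regulators SMXL5 (AT5G57130) and BRX (AT1G31880) were higher. SMXL5, a phloem formation gene, had 42.3, 84.3 and 54.9 CPM in stimulus against 9.91, 3.68 and 7.43 CPM in mock, a log2 change of 3.11 ± 0.43 (adjusted p 0.00842, edgeR), called in the reduced set too. BRX changed by 2.43 ± 0.51 and was called without mock replicate 2 but not without any of the other 5. 3 of the 8 phloem genes were higher in the reduced set. None of the 10 xylem and secondary wall genes was called by edgeR without a replicate block or by DESeq2, and 2 had an unadjusted p under 0.05, 1 in each direction. The smallest p of that list belonged to ACL5, a gene of xylem cell fate, at 20.9, 22.1 and 13.3 CPM in stimulus and 12.6, 9.01 and 3.78 CPM in mock.

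Mitotic kinases were higher and 1 cyclin lower among 14 cell cycle genes, with a median of 1.02 (log2). Over all genes 2.67% were higher and 5.14% lower. CDKB2;2 (AT1G20930), a kinase of dividing cells, had 8.72, 11.2 and 9.25 CPM in stimulus against 2.28, 1.74 and 2.08 CPM in mock. It changed by 2.25 ± 0.29 (adjusted p 0.00687, edgeR), with CDKB1;1 at 1.71 ± 0.30 and CDKB2;1 at 1.33 ± 0.25. CDKB2;2 was not called without stimulus replicate 2. CDKB1;1 was not called once any stimulus library or mock replicate 3 was left out, CDKB2;1 was called only without mock replicate 2, and neither was called in the reduced set. CYCD1;1 (AT1G70210), which acts at the entry to the cycle, had 0.362, 0.854 and 0.319 CPM in stimulus against 10.5, 3.06 and 1.84 CPM in mock. It changed by -3.30 ± 0.79 and was called only without mock replicate 4. CDKB2;2 alone was called in the reduced set.

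Ethylene synthesis genes also split. ACS4 and ACS5, which make the ethylene precursor, were higher and 1 gene was lower, out of 7 tested of 11. The shares over all genes were 2.67% higher and 5.14% lower. ACS5 (AT5G65800) held 68, 250 and 99 counts in stimulus and 2, 1 and 0 counts in mock, a ratio of 109 (95% interval 37.2 to 533, counting error only). ACS4 (AT2G22810) had 3.23, 19.7 and 4.75 CPM in stimulus against 0.102, 0.141 and 0 CPM in mock, and was not called without mock replicate 3. In the reduced set 2 were higher and 1 lower, of 8 tested.

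Of 26 nuclear genes for light harvesting, Rubisco small subunits and carbon fixation, all tested, 12 were lower and none was higher, with a median of -1.85 (log2), and all 26 were below 0 in each of the 3 numbers. Over all genes 5.14% were lower, and 46.6% had the same sign in all 3 numbers. RBCS2B (AT5G38420), a Rubisco small subunit, had 345, 333 and 522 CPM in stimulus against 1310, 2585 and 1896 CPM in mock. It changed by -2.27 ± 0.37 (adjusted p 0.0145, edgeR), GAPB (AT1G42970) by -1.72 ± 0.31 and RBCS1B (AT5G38430) by -1.83 ± 0.33. All 3 were not called without stimulus replicate 2, stimulus replicate 3 or mock replicate 3, and all 3 were called in the reduced set. LHCB2.3 (AT3G27690), a light-harvesting protein, had 3.39, 0.716 and 2.83 CPM in stimulus against 104, 8.68 and 65.3 CPM in mock, with the mock value of replicate 3 well below the other 2. Its log2 change was -4.69 ± 0.97, and it was called without mock replicate 2 or mock replicate 3 but not without any of the other 4 libraries, nor in the reduced set. Reads of the RBCS and LHCB families may be shared between near-identical copies. The summed level of the 26 genes was 8852 to 21578 CPM in stimulus and 34704 to 63952 CPM in mock. Of 2 epidermis markers ATML1 was lower (log2 change -0.85 ± 0.20, adjusted p 0.0414, edgeR), a call kept without mock replicate 2 but lost without any of the other 5 libraries and in the reduced set. The summed level of both was 43.3 to 54.2 CPM in stimulus and 70.0 to 99.9 CPM in mock. The companion cell marker SUC2 was at 34.6 to 52.3 CPM in stimulus and 19.5 to 34.6 CPM in mock. Guard cell markers summed to 4.55 to 15.3 CPM in stimulus and 5.47 to 23.4 CPM in mock, and root hair markers, of another organ, to at most 0.132 CPM in stimulus and 0.236 CPM in mock. The part of these cell types in the photosynthesis result was not tested. In leaves as a whole, fewer cells of a type and less RNA per cell cannot be told apart. 4 of the 26 were lower in the reduced set, beside 570 of all genes. DESeq2 on all 6 libraries called 25 of them lower, beside 1817 of all genes.

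**Figure D3:**
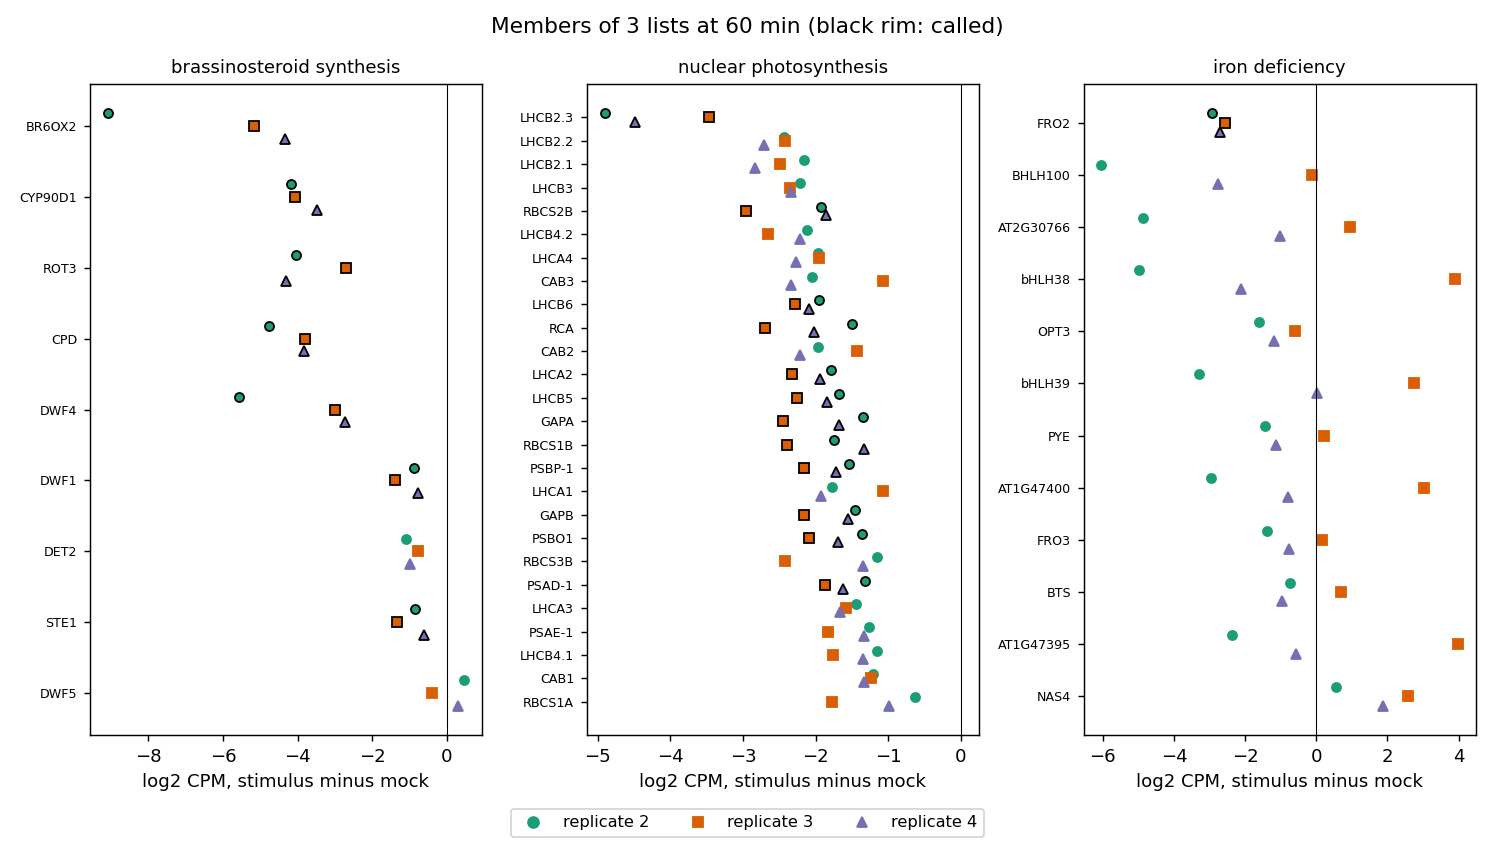
Points give the stimulus minus mock difference in log2 CPM for each gene within replicates 2, 3 and 4, for the brassinosteroid synthesis, photosynthesis and iron deficiency lists, with a black rim where the gene was called. All 26 photosynthesis genes lie below 0 in each number, whereas most iron genes lie below 0 in replicate 2 and above 0 in replicate 3.

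Glucosinolates are sulfur-rich defence compounds, and 7 of 18 tested of 19 synthesis genes were lower with none higher and a median of -2.50 (log2). Over all genes 5.14% were lower, a share that also stands beside the jasmonate counts below. MAM1 (AT5G23010), which elongates their precursor amino acids, had 1.25, 1.43 and 1.56 CPM in stimulus against 33.9, 16.4 and 27.0 CPM in mock. BCAT4 (AT3G19710), a transaminase at the start of that route, had 0.0658, 0.110 and 0.199 CPM in stimulus against 6.61, 4.81 and 5.21 CPM in mock. Both stood well apart, with log2 changes of -4.19 ± 0.34 (adjusted p 0.00294, edgeR) and -5.45 ± 0.52 (adjusted p 0.00395, edgeR). CYP79F1 (AT1G16410), which acts on the elongated amino acids, changed by -5.03 ± 0.62 and was not called without stimulus replicate 2. MYB29 (AT5G07690), a regulator of the pathway, held 0, 0 and 1 count in stimulus and 160, 39 and 72 counts in mock, so mock was 344-fold higher (95% interval 61.2 to 13641, counting error only), and 144-fold (25.2 to 5718) in the reduced set. In the reduced set 5 of 18 were lower and the median was -1.59. With total counts 5 were lower too, while DESeq2 on all 6 libraries called 10. HOL1 (AT2G43910), a methyltransferase that acts on thiocyanate and halide ions, had 2.96, 2.51 and 3.11 CPM in stimulus against 57.7, 64.6 and 56.1 CPM in mock, a log2 change of -4.38 ± 0.21. Of 15 jasmonate genes tested of 17, LOX2 and AOS, both enzymes of jasmonate synthesis, were lower and none was higher. LOX2 (AT3G45140) had 264, 102 and 127 CPM in stimulus against 1077, 1082 and 1640 CPM in mock, a log2 change of -2.94 ± 0.45 (adjusted p 0.0112, edgeR), and was not called without mock replicate 3. AOS (AT5G42650) changed by -1.49 ± 0.31 and was called without stimulus replicate 3 but not without any of the other 5. In the reduced set 3 were lower of 14 tested.

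Other named genes by the size of their change were RLP23 (AT2G32680), a receptor-like protein of immunity, PNP-A (AT2G18660), a secreted peptide, and MAKR6 (AT5G52900), of the membrane-associated kinase regulator family. RLP23 had 29.6, 33.3 and 34.3 CPM in stimulus against 0.545, 0.330 and 0.692 CPM in mock, and PNP-A had 24.3, 28.7 and 36.0 CPM in stimulus against 0.647, 0.424 and 1.15 CPM in mock. Their groups were apart, with log2 changes of 5.94 ± 0.31 and 5.32 ± 0.40. MAKR6 changed by 3.93 ± 0.88 and was called only without mock replicate 2 among the single left-out libraries. AT4G20320, annotated as a CTP synthase, changed by 4.19 ± 0.47 and AT1G10750 by 3.97 ± 0.44. Among the lowest were AT1G52000 (-4.97 ± 0.46) and JR1 (AT3G16470, -4.33 ± 0.51), both mannose-binding lectins, and KT2/3 (AT4G22200, -4.13 ± 0.40), a potassium channel. AT1G73600, a methyltransferase, had 29.0, 44.2 and 22.9 CPM in stimulus against 439, 716 and 344 CPM in mock and changed by -3.96 ± 0.42. AT2G45180 changed by -3.91 ± 0.28 and AT3G11930 by -3.75 ± 0.39. All of these except MAKR6 were called whichever single library was left out.

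The counts of the remaining lists stand beside shares of 2.67% higher and 5.14% lower over all genes. Iron deficiency genes had 1 lower (FRO2, which reduces iron for uptake) of 12 tested of 17, with a median of -0.88 (log2). At 0 min 11 of the 14 tested there were lower, beside 29.6% of all genes lower at that time. FRO2 (AT1G01580) had 0.0988, 0.0826 and 0.239 CPM in stimulus against 1.23, 0.849 and 1.98 CPM in mock, and was called without mock replicate 2 but not without any of the other 5 libraries, nor in the reduced set. Clock genes had PRR3 and LCL1 (also RVE4) lower of 19, with log2 changes of -1.64 ± 0.33 and -0.84 ± 0.20. LCL1 was not called once any library was left out and PRR3 was called only without mock replicate 2 or mock replicate 4, and neither was in the reduced set. The clock list median of -0.38 turned to 0.01 with total counts. In the edgeR fit of the 6 libraries without a replicate block no call was made among 7 gibberellin genes, 10 heat shock genes, 8 senescence genes, 19 short-lived WRKY, ERF, ZAT and CBF genes or 20 RNA decay genes, which include the nucleases and decapping factors that remove transcripts. The RNA decay median was 0.07 (log2), and turned to -0.06 without replicate 3. At an unadjusted p under 0.05 these lists had 3, 2, 2, 2 and 0 genes in that order. DESeq2 called 1 gibberellin, 1 heat shock and 1 short-lived gene and none of the other lists. With total counts 2 heat shock genes and 4 of the RNA decay genes were called higher, where the median of all genes was 0.43. The medians of the short-lived and senescence lists, -0.30 and -0.19, turned to 0.18 and 0.38 with total counts. The 4 short-lived factors of highest level did not pass: WRKY33 at 97.2 CPM on average in stimulus and 55.0 CPM in mock, WRKY18 at 41.1 CPM in stimulus and 30.7 CPM in mock, WRKY40 at 14.4 CPM in stimulus and 35.7 CPM in mock, and STZ (also ZAT10) at 21.7 CPM in stimulus and 26.6 CPM in mock. WRKY18 turned to a negative change without replicate 3, and STZ to a positive one with total counts. HSP90.1, a chaperone gene, came closest among these lists with a log2 change of 1.07 ± 0.26 (adjusted p 0.0509, edgeR), with 86.1, 71.5 and 80.5 CPM in stimulus and 26.5, 37.2 and 49.4 CPM in mock. At an unadjusted p under 0.05, 4402 of all nuclear genes differed at 60 min.

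The differences present before cordycepin were set beside these. At 0 min, 5392 of 20070 genes tested (26.9%) were higher in stimulus than in mock and 5940 (29.6%) were lower, by the same edgeR test on 6 other libraries. Of the 541 genes higher at 60 min 538 (99.4%) were higher at 0 min, and of the 1043 lower at 60 min 1042 (99.9%) were lower at 0 min, beside those background shares of 26.9% and 29.6%. No gene was called in opposite directions, under any setting tried. Read the other way, the 1580 genes called alike were 13.9% of the 11332 called at 0 min. Most 0 min calls were not called at 60 min but kept their sign: 97.3% of the 5281 higher ones tested at 60 min, and 96.3% of the 5698 lower ones. The median change of those higher genes was 0.56 at 60 min and 0.65 at 0 min (log2), and of the lower genes -0.76 at 60 min and -0.85 at 0 min. Among genes at least 8-fold higher at 0 min 146 of 266 (54.9%) were called higher at 60 min, where 225 of them could be tested. Among those at least 8-fold lower 109 of 224 (48.7%) were called lower, with 162 tested. The medians of those tested were 3.1 at 60 min and 3.74 at 0 min for the higher genes, and -3.24 at 60 min and -3.65 at 0 min for the lower genes. In the reduced set 810 of the 811 genes called at 60 min were called alike at 0 min.

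**Figure D4:**
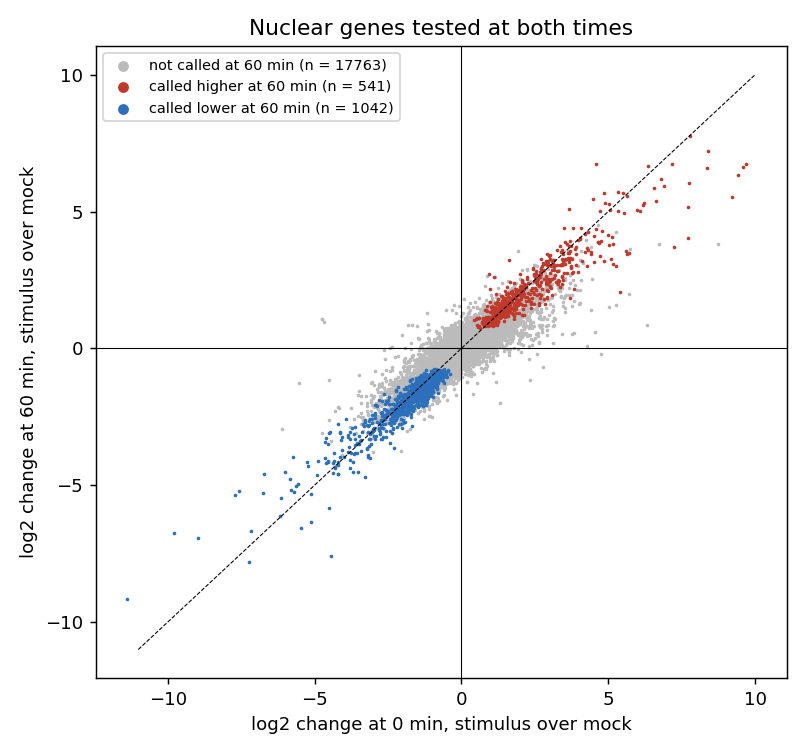
Each point is 1 of 19346 nuclear genes tested at both times, with the log2 change of stimulus over mock at 0 min on the x axis and at 60 min on the y axis, and a dashed line where they are equal. Genes called at 60 min, 541 higher and 1042 lower among those plotted, lie in the quadrants where both changes have the same sign.

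Only 4 genes were called at 60 min and not at 0 min, named here after their values were seen. AT1G18830, AT1G09195 and AT1G63530 were higher at 60 min, with log2 changes of 2.59 ± 0.51, 1.39 ± 0.29 and 2.19 ± 0.47, and their changes at 0 min were 1.12, 0.82 and 0.99, of the same sign but not called. AT1G10682, at or below 0.138 CPM in stimulus and 0.443 to 0.830 CPM in mock, was too low to be tested at 0 min. The test of the change in difference gave adjusted p-values of 1.00 for all 4.

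Whether a difference at 60 min was other than at 0 min was tested directly over the 12 libraries. None of 21285 nuclear genes (0%) was called by edgeR, with 0.123 as the smallest adjusted p. By the unadjusted p, 344 (1.62%) were under 0.05, 111 with a higher difference at 60 min and 233 with a lower one. That share is below the 0.05 that a calibrated test would give with no change in any gene. The absence of calls therefore does not show that the differences held. DESeq2 called 3 and limma voom none. The 3 genes with the smallest p were AT5G06570, TAT3 and IAA19, all called higher in stimulus at 60 min and less so than at 0 min. AT5G06570, an alpha/beta hydrolase family gene, had 7.28, 9.26 and 5.54 CPM in stimulus against 1.33, 2.55 and 1.48 CPM in mock, a log2 change of 2.05 ± 0.39 at 60 min and 5.41 at 0 min. That call was lost in the reduced set, and without stimulus replicate 2, stimulus replicate 3, mock replicate 3 or mock replicate 4. TAT3 (AT2G24850), a tyrosine aminotransferase, had 33.1, 48.8 and 31.9 CPM in stimulus against 6.40, 3.44 and 4.06 CPM in mock, a log2 change of 3.03 ± 0.32 at 60 min and 5.28 at 0 min. IAA19, whose values stand above, changed by 3.38 at 60 min and 4.71 at 0 min. The differences between those changes were -3.39, -2.29 and -1.36 (log2), and none passed the adjusted threshold with edgeR. Mean levels of AT5G06570 at 0 and 60 min were 15.5 and 7.36 CPM in stimulus and 0.362 and 1.78 CPM in mock. Those of TAT3 were 43.6 and 37.9 CPM in stimulus and 1.12 and 4.63 CPM in mock. Those of IAA19 were 33.97 and 24.6 CPM in stimulus and 1.29 and 2.36 CPM in mock. In all 3 genes the mean was thus higher in mock, as well as lower in stimulus, at 60 min than at 0 min. In the reduced set together with the 6 libraries of 0 min 10 genes were called, 2 with a higher and 8 with a lower difference at 60 min, AT5G06570 among the 8.

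Each replicate number was also compared on its own, as stimulus minus mock in log2 CPM. The labels do not say what a number stands for, so it only matches libraries here. The median over all genes was within 0.03 of 0 in each, at -0.00, 0.03 and 0.01 in numbers 2, 3 and 4. More than 2-fold differences numbered 2690 higher and 3332 lower in number 2, 3033 and 2857 in number 3, and 1708 and 2643 in number 4. Across the 20278 genes, which share libraries and are not independent, Pearson's r was 0.13 between numbers 2 and 3, 0.54 between 2 and 4 and 0.59 between 3 and 4. Numbers 2 and 3 thus shared less of their differences than either shared with number 4. All 3 numbers had the same sign in 9453 genes (46.6%), and over 2-fold in the same direction in 619 higher (3.05%) and 990 lower (4.88%). In 518 genes number 2 was more than 2-fold lower and number 3 more than 2-fold higher, and in 624 the reverse held. The 500 declining transcripts had medians of -0.64, 1.47 and 0.24 in numbers 2, 3 and 4. Of these transcripts 50 were called higher and 7 lower, beside 2.67% and 5.14% of all genes. They were chosen on stimulus libraries. At 0 min 259 of them were called higher and 124 lower, with a median of 0.41 (log2), beside 26.9% and 29.6% of all genes. The decline index used the same transcripts and libraries, so these medians are no separate evidence.

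The numbers differed by gene group. Brassinosteroid synthesis had medians of -4.05, -2.69 and -2.74 in numbers 2, 3 and 4, and photosynthesis -1.71, -2.21 and -1.85, so each had 1 direction throughout. The GH3 and LBD list stood at 3.04, 4.36 and 2.1, and type-A regulators at 1.61, 3.21 and 3.61. Aux/IAA genes were at 0.11, 1.27 and 0.74, a wider range than their direction implies. Iron deficiency genes turned round, with -2.65, 0.81 and -0.98, and jasmonate genes likewise with -1.39, 0.66 and -1.17. Glucosinolate genes had -3.67, -0.62 and -1.51. Number 2 holds the mock library, and number 3 the stimulus library, with the least decline, and the part of this in these pair differences was not tested. Within each number CPD was lower (-4.78, -3.82 and -3.82) and BAS1 higher (4.46, 5.19 and 5.17). Both genes were named by a rule that required the same sign in each number, so their shared direction was fixed by that choice.

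**Figure D5:**
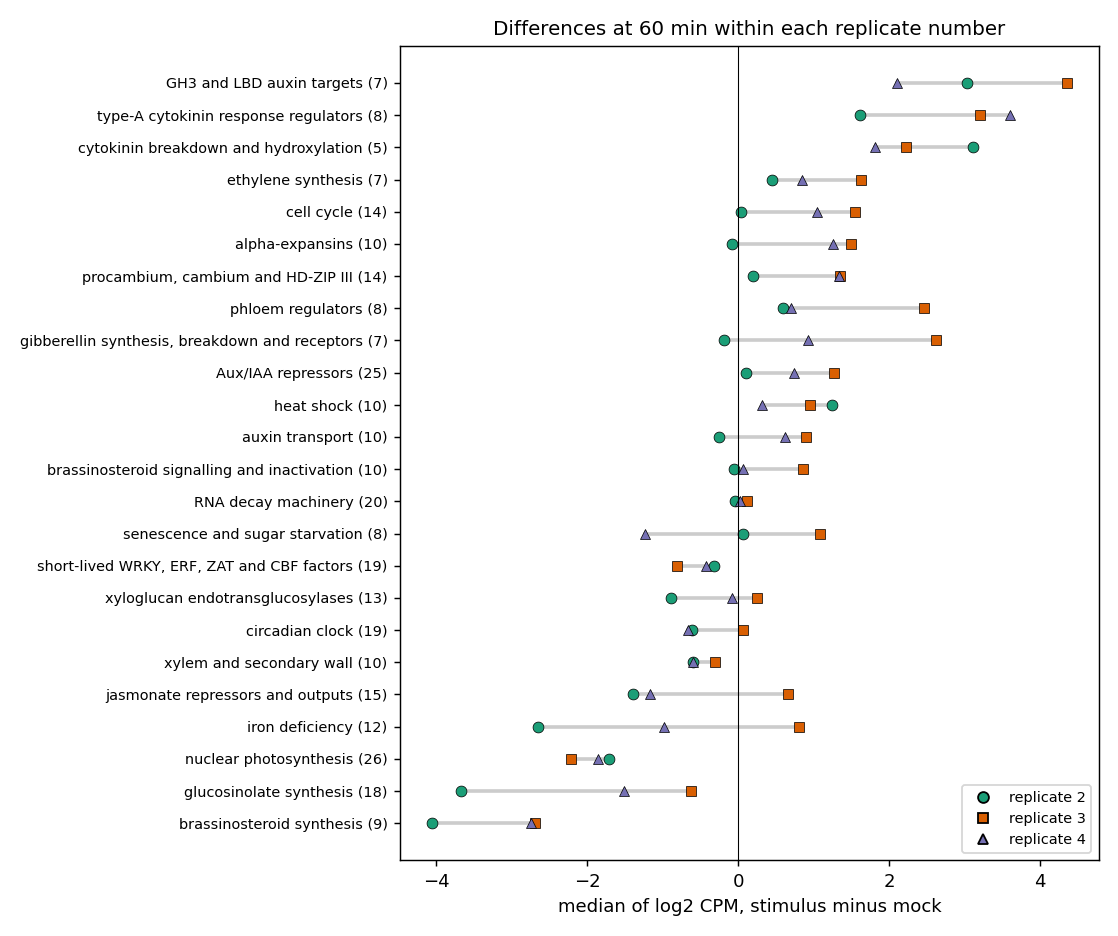
For each gene list, with its number of tested genes in brackets, points mark the median stimulus minus mock difference in log2 CPM within replicates 2, 3 and 4, and the grey bar spans them. Brassinosteroid synthesis, glucosinolate and photosynthesis lists lie below 0 in each number, the GH3 and LBD, type-A regulator and cytokinin breakdown lists above 0, and iron deficiency and jasmonate lists lie above 0 in replicate 3 alone.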

How the data were processed

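The file the authors deposited holds raw counts, 1 column for each library. The submitters' processing notes name TopHat2, Bowtie2 and the TAIR10 build. The counting tool, the annotation and whether counting used strand are not given in the sources used here. Reads of antisense or overlapping genes, and of near-identical copies, may therefore be shared. Libraries were stranded and depleted of ribosomal RNA, per the labels' protocols, and carry no molecular identifiers. Of 38194 features 37751 matched RefSeq (TAIR10.1), whose symbols are used, and the 296 organelle features entered the fit but are not reported.

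Counts were fitted with edgeR 4.0.16 (R 4.3.3) on TMM library sizes, after filterByExpr, by robust quasi-likelihood F tests. Two-sided p-values were adjusted by Benjamini and Hochberg over the 20512 features tested at 60 min, 20323 at 0 min and 21543 for the change. Called means an adjusted p under 0.05. CPM are counts scaled to the effective library size, SE is the log2 change over the root of F, and differences within a number used a prior count of 2. Count ratios have exact binomial intervals on counts pooled per group. The code was tested on simulated counts with known changes. DESeq2 1.42.0 and limma 3.58.1 served as alternatives, with other scalings, filters, a 1.5-fold minimum, a fit of all 24 libraries, the replicate block and left-out libraries.

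The members, gene lists and libraries left out together were chosen with earlier results of these data known. Named genes are the 10 with the largest change each way among called genes of at least 10 CPM on average whose groups do not overlap and whose 3 number differences share a sign, up to 3 called genes of each list by adjusted p with any in the rarer direction (with none called, the smallest p), and the 3 with the smallest p for the change. Other genes named were chosen after their values were seen. The values of some list members are not reported here.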

Additional observations from a re-analysis of the deposited data

How the results depend on the processing

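At 60 min the 1584 calls numbered 1457 to 2296 under other scalings and filters, limma voom and the replicate block. They numbered 2864 with DESeq2, 4430 in 1 fit of all 24 libraries, 678 beyond 1.5-fold, 811 without mock replicate 2 and stimulus replicate 3, and 0 to 1505 with libraries left out in turn. The 0 min count of 11332 moved to 5105 in the fit of all 24 and 4882 beyond 1.5-fold, and was 9171 to 11402 with libraries left out; it has no value for the setting that drops 60 min libraries. Calls shared by both times were 2827 with DESeq2, 3661 in the fit of all 24, 672 beyond 1.5-fold, 810 without the 2 libraries, and 0 to 1489 with libraries left out. The change from 0 to 60 min gave 1 call without a filter, 3 with DESeq2, 10 without the 2 libraries, and 0 to 0 with libraries left out in turn. The causes were not tested.

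Same-numbered deviations correlated by -0.21, -0.29 and 0.69 for numbers 2, 3 and 4, so the numbers were not taken to pair samples. Not every library correlated best with its own number: stimulus 3 with mock 2 gave 0.68 and stimulus 2 with mock 3 gave 0.50. With the replicate block 2296 genes were called at 60 min, 772 higher and 1524 lower. It called 10835 at 0 min, 2271 at both and 0 for the change, and 61 of the 65 named calls held. The block called 24 of 26 photosynthesis and 3 clock genes lower, and, in lists with no call without it, 1 xylem, 1 gibberellin and 2 heat shock genes higher and 1 short-lived gene lower. Scaling on the reference transcripts called 1 heat shock gene.

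No named call changed sign in 650 values with libraries left out. The groups of every called gene did not overlap, so a change of sign was hardly possible. Of the 65, 27 were called without each of the 6 libraries in turn. Among genes not called, STZ reversed to 0.18 with total counts, 0.06 without stimulus replicate 2 and 0.24 without mock replicate 4, within -0.70 to 0.24 with libraries left out. WRKY18 reversed to -0.71 without replicate 3, -0.37 without stimulus replicate 3 and -0.22 without both libraries, within -0.71 to 1.01 with libraries left out.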

Other observations

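Families taken from RefSeq product names, chosen after other results had been seen, add groups to those above. SAUR-like auxin-responsive genes, small growth-linked proteins, had 9 higher (20.0%) and none lower of 45 tested, beside 2.67% of all genes higher, with a median of 0.93 (log2). At 0 min 25 were higher and 7 lower, with a median of 1.69, beside 26.9% of all genes higher and 29.6% lower at that time. Histone genes had 3 higher (HTA11, HTA8 and HTR12) and none lower of 45, with a median of 0.95 at 60 min and 1.25 at 0 min, where 34 were higher. Over all genes 2.67% were higher at 60 min and 26.9% at 0 min. Mannose-binding and jacalin lectins had 5 lower (AT1G52000, JAL34, JR1, AT1G19715 and AT1G52100) and none higher of 10, with a median of -1.93 (log2), beside 5.14% of all genes lower.

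Chlorophyll a/b-binding genes had 6 lower (30.0%) and none higher of 20, some of them in the photosynthesis list. Cytochrome P450 genes had 6 higher (5.50%) and 13 lower (11.9%) of 109, and lipid-transfer protein genes 5 higher (12.5%) and 7 lower (17.5%) of 40, beside 2.67% higher and 5.14% lower over all genes. Pentatricopeptide repeat genes, which process organelle RNA, had none higher and 10 lower (3.77%) of 265 with a median of 0.24 (log2). None of 73 TIR-NBS-LRR resistance genes was called by edgeR, beside 7.81% of all genes called in either direction. Protein-coding genes with 1 exon made up 11.2% of the higher, 8.03% of the lower and 13.0% of all protein-coding genes tested. These shares are descriptions and were not tested.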
